A study of Mus musculus with 18 samples.

Results

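The 10 genes described here, Nqo1, Gclc, Gclm, Hmox1, Txnrd1, Srxn1, Sod2, Aox1, Ugdh and Ephx1, are antioxidant and detoxification genes, most of them known targets of the transcription factor NRF2. They were chosen by name from 36230 single gene symbols on the Affymetrix Mouse Transcriptome Array 1.0, with earlier results of these data known. Each member's symbol had 1 transcript cluster. Livers of 18 healthy adult male mice were measured, with 1 array per animal and 3 animals in each of 6 groups. All animals had received an adeno-associated virus (AAV), labelled HPNWT in 3 groups and EGFP, the green fluorescent protein used as the control, in the other 3, and the groups were named for day 1, day 2 and day 4. Per the series' text the virus was meant to raise hepsin (gene Hpn), a protease anchored in the cell membrane, in the liver only. The labels do not spell out HPNWT, and mouse strain, exact age, virus dose, the promoter in the virus and the starting point of the day count are not known from the sources used here. The values are the authors' log2 signals from robust multi-array averaging (RMA).

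Under resting conditions NRF2 is held in the cytoplasm by KEAP1, which directs its ubiquitination and breakdown. Electrophiles and oxidants modify KEAP1, and NRF2 then enters the nucleus, pairs with a small MAF protein and binds antioxidant response elements in the DNA of its target genes. In liver these targets make glutathione, reduce thioredoxin and peroxiredoxins, and oxidise, reduce or conjugate reactive compounds. Several of the drug-metabolizing members are also targets of other receptors, among them the xenobiotic receptors CAR and PXR.

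The promoter letters around motif matches before the start are shown as a description, because 5 members moved in one direction and 1 in the other. They do not let these directions be compared at the element through which NRF2 acts, since several members have no match to it here. Elements more than 250 bases before the start were not searched. RefSeq promoters of mouse build GRCm38.p6, running from 250 bases before to 50 bases after an annotated start, were held for 8 of the 10 members, and Gclc and Hmox1 were not among them. The antioxidant response element core TGACNNNGC was searched on both strands, as was the AP-1 site TGANTCA. Some sequences match both patterns at once, but no member's match of one, as written here, lay over a match of the other. The core occurred in 4071 of 32851 promoters, or 12.4%, and the AP-1 site in 2565, or 7.81%. The core was found in Gclm, in Ugdh at 2 places, in 1 of the starts of Txnrd1, and in Srxn1 at positions 28 to 36 after the start. The AP-1 site was found in Srxn1 at 2 places and in Aox1. At the second place in Srxn1 the letters run on as TGAGTCAgc, which differs from the core in 1 letter, G for C. Forms of the core with G there were not searched, so an element of that form is not counted here. Neither pattern was found in these windows for Nqo1, Sod2 and Ephx1. Each line below gives the gene's own strand from 5′ to 3′, with the matched letters in capitals and 20 bases on either side.
Gclm, chr3:122245403-122245451, plus strand: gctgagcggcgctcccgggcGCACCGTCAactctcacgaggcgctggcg
Ugdh, chr5:65435908-65435994, minus strand: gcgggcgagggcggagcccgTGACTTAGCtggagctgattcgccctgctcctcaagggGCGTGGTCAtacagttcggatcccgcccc
Txnrd1, chr10:82859094-82859142, plus strand: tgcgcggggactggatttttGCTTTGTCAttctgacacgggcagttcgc
Srxn1, chr2:152105402-152105505, plus strand: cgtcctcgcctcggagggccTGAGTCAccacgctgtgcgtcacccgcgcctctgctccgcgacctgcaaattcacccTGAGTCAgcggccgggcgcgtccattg
Aox1, chr1:58029729-58029775, plus strand: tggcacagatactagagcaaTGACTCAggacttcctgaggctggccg
Of the cores printed, those of Gclm, Txnrd1 and the second place in Ugdh read in the reverse complement. The core of Srxn1, also in the reverse complement, lies after the start and is not printed. A match describes letters and does not show that a factor binds there.

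The arrays were alike, with correlations between 0.982 and 0.998. The number of arrays limits the precision. Hpn itself lay between 8.1 and 8.62 on HPNWT arrays and between 8.09 and 8.42 on EGFP arrays, and was not called different at any day (limma adjusted p between 0.731 and 0.894), so the direction of every difference below rests on the labels alone. The hepatocyte markers had summed log2 signals between 15.0 and 15.3 on all arrays, and the 9 measured ones all lay above the negative controls. Of these 9, Apoa1 alone was called, higher in HPNWT livers by 0.301 at day 1 (limma adjusted p = 0.013) and 0.355 at day 2 (0.005). HPNWT day 4 replicate 3 stood apart, with the lowest weight, 0.142, when arrays were weighted by how well they follow the fit. Calls of the members that change without it are given with and without it. Results of the wider lists and the cell type markers are given with it only. The negative-control probe sets had a lower median on HPNWT than on EGFP arrays, at 3.04 against 3.20 at day 1, 3.04 against 3.41 at day 2 and 3.06 against 3.18 at day 4. Their mean 95th percentile, 6.16, serves here as the level under which a signal cannot be told from background. Nqo1 and Sod2 had group means under it in every group, so no fold is given for them.

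Of the 10 members, Gclm, Sod2 and Ephx1 were lower in HPNWT than in EGFP livers at all 3 days. Aox1 was lower at day 2 and day 4, and Ugdh at day 2. Srxn1 was higher at day 4. Gclc, Txnrd1, Nqo1 and Hmox1 were not called at any day. A gene was called at a Benjamini-Hochberg adjusted p below 0.05 over all 40161 clusters tested in limma. At day 1 the calls were 3 lower, where 1.62% of all clusters were lower, and 0 higher, where 2.97% were higher. At day 2 the calls were 5 lower against 3.51% of all clusters and 0 higher against 2.16%. At day 4 the calls were 4 lower against 0.67% of all clusters and 1 higher against 1.54%. The counts depended on single arrays. At day 1 they dropped to 1 without replicates 1 or 2 of the HPNWT group or replicates 2 or 3 of the EGFP group of that day. At day 4, 5 were called without HPNWT replicate 3. Only 2 were called there without replicate 2 of HPNWT day 4 or replicates 2 or 3 of EGFP day 4, and 3 without replicate 1 of either day 4 group, replicate 2 of HPNWT day 1, EGFP day 1 or HPNWT day 2, or replicate 3 of EGFP day 2. The median difference of the 10 members was −0.28 at day 1, −0.35 at day 2 and −0.011 at day 4, beside 0.0066, 0.048 and 0.0068 over all clusters.

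**Figure D1:**
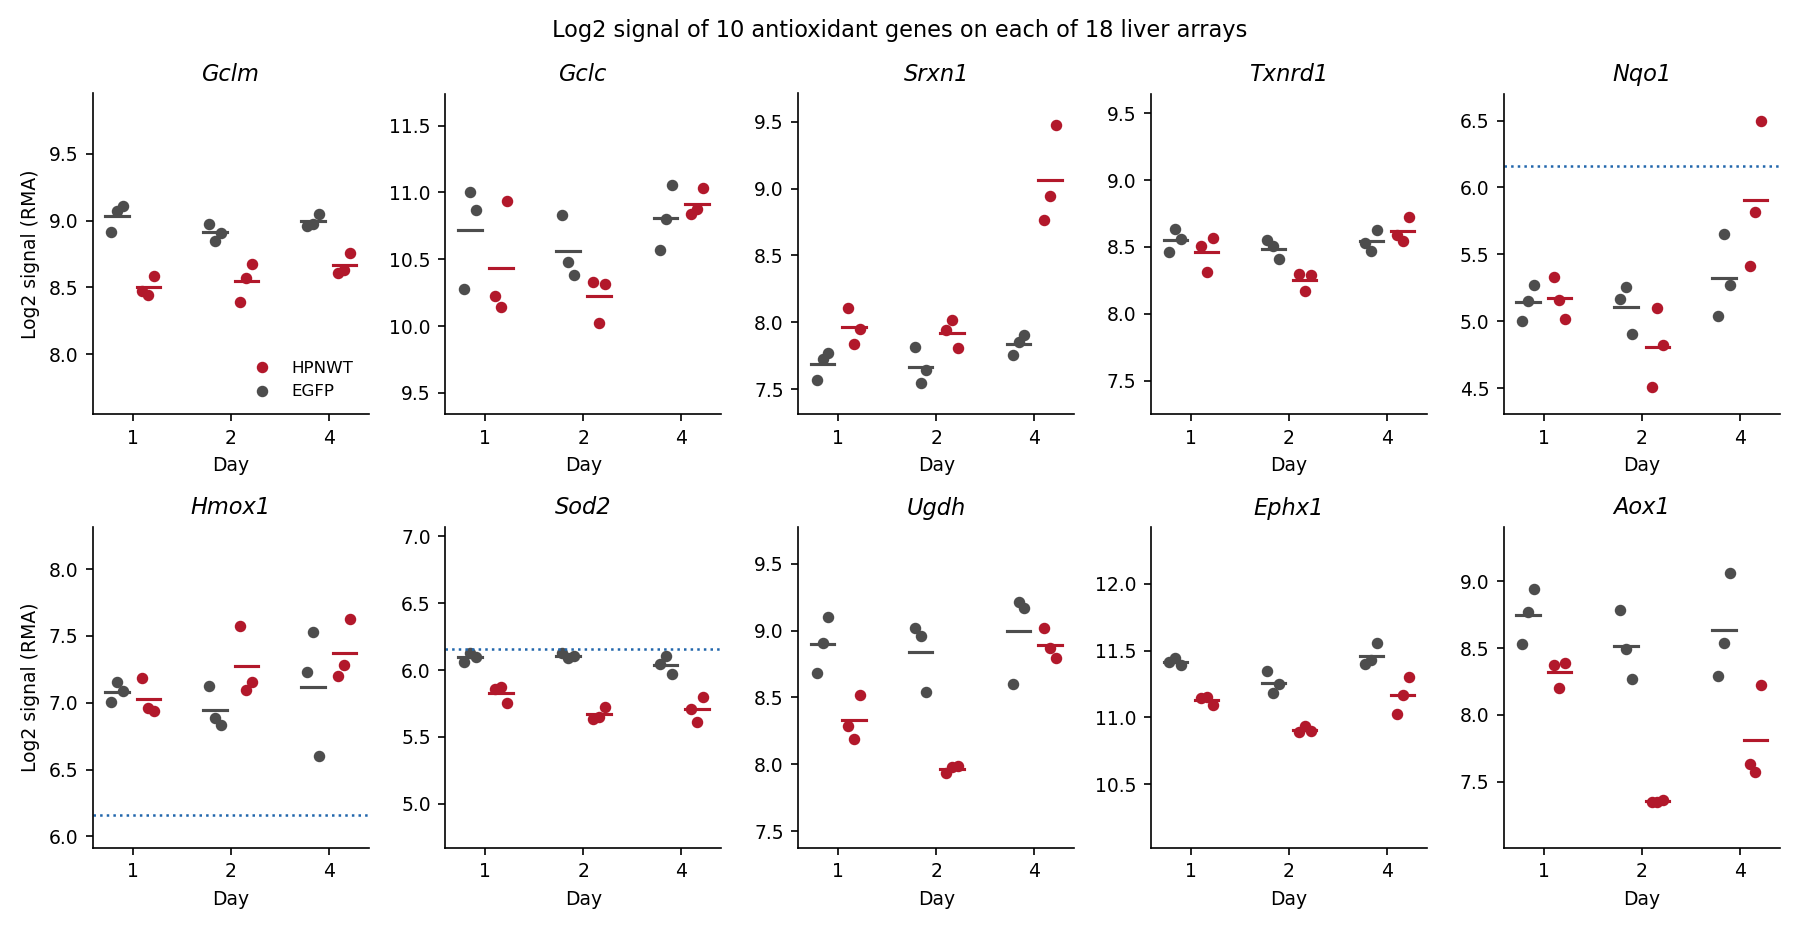
Log2 RMA signal of each of the 10 genes (y axis, own scale for each gene) on 18 arrays by day (x axis), with HPNWT in red, EGFP in grey and short bars at the means of 3 arrays. The dotted line marks the negative controls' 95th percentile, 6.16, and the Srxn1 panel shows the 3 HPNWT day 4 arrays between 8.77 and 9.48, above the other 15 arrays.

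Glutathione is made in 2 steps, and the first is carried out by glutamate-cysteine ligase, formed by the catalytic subunit Gclc and the modifier subunit Gclm. The modifier fell and the catalytic subunit was not called. Gclm read 8.48, 8.44 and 8.58 on the HPNWT arrays of day 1 and 8.91, 9.07 and 9.11 on the EGFP arrays. The day 2 values were 8.39, 8.57 and 8.67 against 8.98, 8.85 and 8.91. Those of day 4 were 8.61, 8.63 and 8.76 against 8.96, 8.97 and 9.05. Every HPNWT array lay below every EGFP array, also across days. Gclm was 1.44-fold lower at day 1 (log2 difference −0.53, SE 0.0799, adjusted p = 0.00106). It was 1.29-fold lower at day 2 (−0.37, adjusted p = 0.0133) and 1.25-fold lower at day 4 (−0.33, adjusted p = 0.0426). Of the 18 fits that each left out 1 array, 18 kept the call at day 1. At day 2 it was lost without replicate 1 of either group of that day, with adjusted p = 0.0643 and 0.0516. At day 4 only 7 of the 18 fits kept it, with differences from −0.37 to −0.30 and adjusted p up to 0.154. It was lost there without any EGFP array of day 2 or day 4, without HPNWT day 4 replicate 1 or 2, and without replicate 2 of HPNWT day 1, EGFP day 1 or HPNWT day 2.

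Gclc, the catalytic subunit, read 10.22, 10.14 and 10.93 on HPNWT arrays at day 1 against 10.28, 11.00 and 10.87. At day 2 it read 10.33, 10.02 and 10.32 against 10.83, 10.48 and 10.38, and at day 4 10.84, 10.87 and 11.03 against 10.57, 10.80 and 11.06. The groups overlapped at day 1 and day 4, and at day 2 the 3 HPNWT arrays lay just below the EGFP arrays. The differences were −0.28, −0.34 and 0.11 (SE 0.207), with adjusted p = 0.604, 0.382 and 0.907. The SE was larger than that of Gclm, and the spread within groups reached an SD of 0.436.

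Sulfiredoxin, encoded by Srxn1, restores peroxiredoxins that have been over-oxidised, and was the member that rose. On HPNWT arrays it read 8.77, 8.95 and 9.48 at day 4, and on EGFP arrays 7.75, 7.85 and 7.90. The lowest HPNWT array of that day was above every other array of the study. The means were 9.06 ± 0.37 and 7.84 ± 0.0759 (SD, n = 3), which makes Srxn1 2.34-fold higher (log2 difference 1.23, SE 0.138, adjusted p = 1.0e-04). Leaving out HPNWT day 4 replicate 3, the highest array, gave 1.02 with adjusted p = 3.82e-05, and the call was kept in all 26 alternative fits.

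At day 1 Srxn1 read 8.11, 7.84 and 7.95 on HPNWT arrays against 7.56, 7.73 and 7.77, and at day 2 7.94, 8.02 and 7.80 against 7.82, 7.54 and 7.65. The groups were apart at day 1 and overlapped slightly at day 2. The differences, 0.28 and 0.25, were not called (adjusted p = 0.352 and 0.328). The effect at day 4 exceeded that at day 1 by 0.95 (adjusted p = 0.0824) and that at day 2 by 0.98 (adjusted p = 0.202), and neither passed over all clusters. Without HPNWT day 4 replicate 1 both passed, at 1.10 (adjusted p = 0.0304) and 1.12 (adjusted p = 0.0497), and without HPNWT day 4 replicate 3 the first passed at 0.74 (adjusted p = 0.0296). Among the HPNWT groups alone Srxn1 differed between days (moderated F, adjusted p = 6.11e-04).

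Markers of other cell types moved with some comparisons, bile duct markers with that of day 4. Their summed signal over 7 genes lay between 8.96 and 9.40 on HPNWT arrays and between 8.40 and 8.70 on EGFP arrays of day 4. Only Sox9 and Spp1 of them had a mean above the negative controls, while Krt19, Krt7, Epcam, Cldn4 and Cftr were below, and none was called at day 4. Sox9 was called higher at day 2, by 0.93 (adjusted p = 0.0214). Reln, 1 of 10 stellate cell and fibroblast markers, was called higher by 0.48 at day 2 (0.0353) and 0.74 at day 4 (0.00351), and the summed signals of that list overlapped at each day. Erythroid markers, of which Alas2 alone lay above the negative controls, were lower, between 8.24 and 8.28 on HPNWT arrays of day 4 and between 8.66 and 8.92 on EGFP arrays, and Alas2 fell by 0.60 (adjusted p = 0.00595). They were also apart at day 1, between 8.39 and 8.59 against 8.65 and 8.83. Of 14 macrophage markers Mpeg1 alone was called, higher by 1.41 at day 2 (adjusted p = 0.00734) and 1.75 at day 4 (0.00182), while their summed signals overlapped at each day. No neutrophil, T and NK cell or B cell marker had a mean above the negative controls. Among them Cd4 alone was called, lower by 0.452 at day 1 (adjusted p = 0.0231). The part of these cell types in the members' differences was not tested. In whole-liver RNA, fewer cells of a type and less RNA per cell cannot be told apart.

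Thioredoxin reductase 1, encoded by Txnrd1, passes electrons from NADPH to thioredoxin. It read 8.50, 8.31 and 8.57 on HPNWT arrays at day 1 against 8.46, 8.64 and 8.56. At day 2 it read 8.30, 8.17 and 8.29 against 8.55, 8.50 and 8.41, and at day 4 8.59, 8.55 and 8.73 against 8.53, 8.47 and 8.62. The arrays were apart at day 2, with HPNWT lower, and overlapped at the other days. The differences were −0.092, −0.24 and 0.078 (SE 0.0807), with adjusted p = 0.696, 0.105 and 0.794, so the call was missed at each day.

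Nqo1 and Hmox1 are the members most often read as markers of NRF2 activity, and neither was called. Nqo1 encodes a quinone reductase. It read 5.33, 5.16 and 5.02 against 5.0, 5.15 and 5.27 at day 1, and 4.51, 5.10 and 4.82 against 5.17, 5.25 and 4.90 at day 2. At day 4 it read 5.41, 5.82 and 6.50 against 5.04, 5.65 and 5.27, with HPNWT replicate 3 the one array of 18 above the negative controls' 95th percentile. The differences were 0.029, −0.30 and 0.59 (SE 0.221), with adjusted p = 0.977, 0.476 and 0.247. The day 4 value became 0.29 without HPNWT replicate 3 (adjusted p = 0.577) and 0.84 without HPNWT replicate 1, where it passed at adjusted p = 0.0493.

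Hmox1 encodes heme oxygenase 1, which breaks heme into biliverdin, carbon monoxide and iron. It read 7.19, 6.96 and 6.94 against 7.0, 7.16 and 7.08 at day 1. At day 2 it read 7.57, 7.10 and 7.16 against 7.12, 6.88 and 6.83, and at day 4 7.20, 7.29 and 7.63 against 7.23, 7.53 and 6.60. All 3 comparisons overlapped. The differences were −0.05, 0.33 and 0.25 (SE 0.186), with adjusted p = 0.952, 0.345 and 0.675. The day 4 value came to 0.13 without HPNWT day 4 replicate 3. It came to −0.0043 without EGFP day 4 replicate 3, the lowest array, so it has no settled direction.

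Sod2 encodes the mitochondrial manganese superoxide dismutase, which turns superoxide into hydrogen peroxide. Its cluster lay under the negative controls' 95th percentile on every array, and its differences were small and even. It read 5.86, 5.88 and 5.76 on HPNWT arrays against 6.06, 6.13 and 6.10 at day 1, and 5.64, 5.65 and 5.72 against 6.13, 6.09 and 6.10 at day 2. At day 4 it read 5.71, 5.61 and 5.80 against 6.05, 6.10 and 5.97. The HPNWT arrays were all below the EGFP arrays at each day. The differences were −0.27, −0.44 and −0.33 (SE 0.0633), with adjusted p = 0.0231, 8.40e-04 and 0.00771. The day 1 call was lost without any HPNWT array of that day (adjusted p up to 0.0592) and without EGFP day 1 replicate 2 (0.0952) or replicate 3 (0.0705). The negative controls were also lower on HPNWT arrays. With their median as a covariate the differences were −0.24 at day 1 and −0.37 at day 2, no longer called (adjusted p = 0.097 and 0.173), while over the mean of the days the value was −0.31 and called (adjusted p = 0.0059).

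The drug-metabolizing members are Aox1, Ugdh and Ephx1, and the first 2 had the largest falls of the 10 genes over the mean of the days. Aox1 encodes aldehyde oxidase 1, a molybdenum enzyme that oxidises aldehydes and nitrogen-containing rings. At day 1 it read 8.37, 8.20 and 8.39 on HPNWT arrays against 8.53, 8.77 and 8.94. Day 2 gave 7.35, 7.35 and 7.36 against 8.78, 8.49 and 8.27, and at day 4 7.63, 7.58 and 8.23 against 8.29, 8.54 and 9.06. HPNWT was below EGFP on every array of every day, and the 3 HPNWT arrays of day 2 were nearly equal. Aox1 was 2.24-fold lower at day 2 (log2 difference −1.16, SE 0.189, adjusted p = 0.00209) and 1.77-fold lower at day 4 (−0.82, adjusted p = 0.0296). The day 1 difference of −0.43 was not called (adjusted p = 0.272). The day 4 call was lost without HPNWT replicate 1 or 2 of that day (adjusted p = 0.0934 and 0.133) or EGFP replicate 2 or 3 (0.0647 and 0.14), and the day 2 call was kept in 18 of 18 such fits.

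Ugdh encodes UDP-glucose dehydrogenase, which makes the UDP-glucuronic acid used in glucuronidation. It read 8.29, 8.19 and 8.52 on HPNWT arrays against 8.68, 8.91 and 9.10 at day 1, and 7.94, 7.98 and 7.99 against 9.02, 8.96 and 8.54 at day 2. At day 4 it read 9.02, 8.87 and 8.79 against 8.60, 9.21 and 9.17. HPNWT was below EGFP at the earlier days without overlap, and within the EGFP range at day 4. Ugdh was 1.83-fold lower at day 2 (−0.87, SE 0.157, adjusted p = 0.00466). At day 1 it missed the threshold at −0.57 (adjusted p = 0.0511) and passed in 6 of the 18 fits that left out 1 array, those without replicate 3 of HPNWT day 1, EGFP day 2 or HPNWT day 4, replicate 1 of EGFP day 1, or replicates 1 or 2 of EGFP day 4. At day 4 the difference was −0.10 (adjusted p = 0.879). Among the HPNWT groups Ugdh differed between days (moderated F, adjusted p = 0.0227), with means of 8.33, 7.97 and 8.89 (SD 0.169, 0.0259 and 0.115, n = 3). That call was lost without any HPNWT array of day 2 or without HPNWT day 4 replicate 1 or 2, with adjusted p up to 0.0808. The change of the HPNWT effect from day 2 to day 4, 0.77, had an unadjusted p of 0.00312 and did not pass over all clusters (adjusted p = 0.701).

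Ephx1 encodes microsomal epoxide hydrolase, which opens reactive epoxides to diols. It read 11.14, 11.15 and 11.09 on HPNWT arrays against 11.42, 11.44 and 11.39 at day 1. The day 2 arrays read 10.89, 10.93 and 10.90 against 11.35, 11.18 and 11.25, and at day 4 11.03, 11.17 and 11.30 against 11.40, 11.43 and 11.56. The groups did not overlap at any day. Ephx1 was 1.22-fold lower at day 1 (−0.29, SE 0.072, adjusted p = 0.0301), 1.28-fold at day 2 (−0.35, adjusted p = 0.00996) and 1.23-fold at day 4 (−0.30, adjusted p = 0.0412). The day 1 call was lost without any 1 of the 6 arrays of that day (adjusted p up to 0.112). At day 4 it was kept in 5 of 18 such fits. Repeated quantile normalization gave smaller differences that were not called at any day, −0.19 at day 1, −0.20 at day 2 and −0.27 at day 4 (adjusted p = 0.218, 0.149 and 0.099). With an array left out, the day 4 call was lost without any EGFP array of day 1 or day 4, any HPNWT array of day 2, replicate 2 of HPNWT day 1, replicate 3 of EGFP day 2, or replicates 1 or 2 of HPNWT day 4, with adjusted p up to 0.175.

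**Figure D2:**
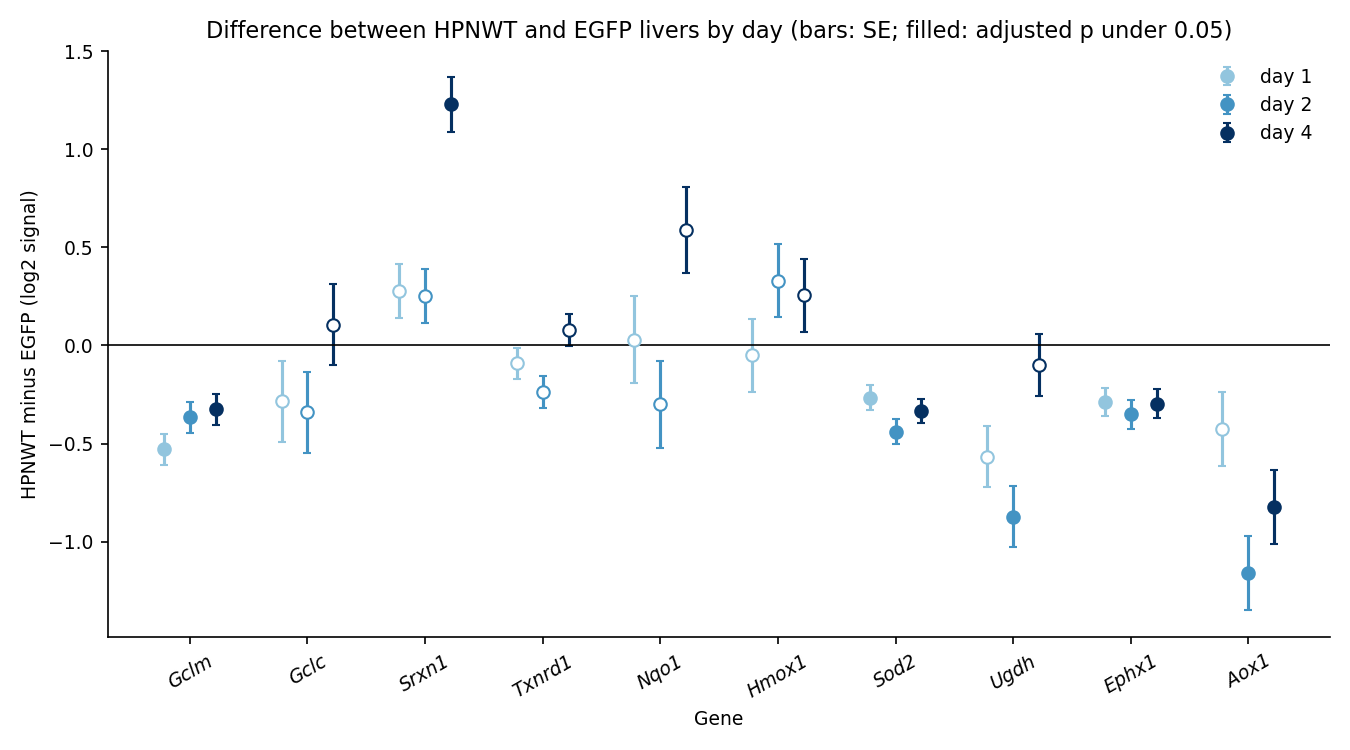
HPNWT minus EGFP difference in log2 signal (y axis) of each gene (x axis) at day 1, day 2 and day 4 from light to dark blue, with SE bars from limma and filled points where the adjusted p was below 0.05. Gclm, Sod2 and Ephx1 are filled and below 0 at all 3 days, and Srxn1 reaches 1.23 at day 4.

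Counted without a test, 5 members had all HPNWT arrays below all EGFP arrays at day 1, where 8.21% of all clusters did, and 1 had them all above, where 10% did. At day 2 the counts were 7 below, against 13.1% of all clusters, and 0 above, against 21.2%. At day 4 they were 4 below, against 5.7%, and 1 above, against 9.91%. The days share no arrays.

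Over the mean of the 3 days 5 members were called lower, where 7.33% of all clusters were, and 1 was called higher, where 7.85% were. Aox1 was lower by the widest margin, at −0.80 (SE 0.109, adjusted p = 9.69e-05), followed by Ugdh at −0.51 (SE 0.0908, adjusted p = 9.56e-04) and Gclm at −0.41 (SE 0.0461, adjusted p = 1.72e-05). Ephx1 stood at −0.31 (SE 0.0416, adjusted p = 8.22e-05). The fifth is Sod2, at −0.35 (SE 0.0365, adjusted p = 8.47e-06), whose signal lay under the negative controls' 95th percentile throughout, so that this difference does not size a change in RNA and has no place in the order of the others. All 5 had the same sign at each of 3 days. Srxn1 averaged 0.59 (SE 0.0798, adjusted p = 9.89e-05), also with 1 sign at all 3 days. An exact 2-sided permutation of the arm labels within days, over 8000 relabellings, gave p = 0.00025 for Gclm, Sod2, Aox1 and Ephx1, which is the smallest it can give. It gave 0.0005 for Srxn1 and 0.003 for Ugdh. The members that were not called averaged 0.11 (Nqo1, exact permutation p = 0.559), −0.17 (Gclc, 0.223), 0.18 (Hmox1, 0.169) and −0.083 (Txnrd1, 0.139).

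Among the 3 HPNWT groups 2 members were called by the moderated F-test of limma, Srxn1 and Ugdh, where 0.64% of all clusters were. Nqo1, Aox1 and Txnrd1 came close (adjusted p = 0.0608, 0.0578 and 0.0967). By the same F-test Aox1 was called without HPNWT day 4 replicate 3 (adjusted p = 0.0152). It was also called without EGFP day 4 replicate 1 or 3 (0.0439 and 0.028). Nqo1 was called without HPNWT day 4 replicate 1 (0.016). Among the 3 EGFP groups 0 members were called, as were 0.0% of all clusters, and 1 member, Ephx1, had an unadjusted p below 0.05 (0.0309). The difference between the day 2 and day 1 effects was called in limma for 0 members and 0.0% of clusters, with 1 member below an unadjusted 0.05. Between day 4 and day 1 it was called for 0 members and 0.0946% of clusters, with 1 member below an unadjusted 0.05, and between day 4 and day 2 for 0 members and 0.00498%, with 4 such members. No member's HPNWT effect was thus shown to differ between days over all clusters.

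In order of level, Srxn1 was highest in HPNWT day 4, and each of the other 5 groups overlapped with its neighbour in the order. For Gclm the 3 EGFP groups were above the 3 HPNWT groups, with the one gap between neighbours lying between EGFP day 2 and HPNWT day 4. Sod2 had the same division. Aox1 was lowest in HPNWT day 2, apart from HPNWT day 4 above it, and Ugdh was lowest in HPNWT day 2 and next in HPNWT day 1, both apart from their neighbours. Txnrd1 and Ephx1 were also lowest in HPNWT day 2 without overlap with the next group. Gclc, Hmox1 and Nqo1 had overlapping neighbours throughout.

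The calls of single days depended on how the negative controls and the spread were treated. With the negative-control median of each array as a covariate, 0 of the 10 members were called at day 2 (limma, adjusted p from 0.166 to 0.475 for the 5 that were called without it), while their differences stayed near, at −1.09 for Aox1, −0.83 for Ugdh, −0.43 for Ephx1, −0.37 for Sod2 and −0.33 for Gclm. The summed log2 signals of sinusoidal endothelial markers were also lower on HPNWT arrays of day 2, from 10.5 to 10.7 against 10.8 to 10.9 for EGFP. All 10 of these markers lay above the negative controls, and none of them was called at day 2. The part of the endothelial markers in the day 2 differences was not tested. With the 6 arrays of a day alone, 1 member was called at day 1 (Gclm) and 1 at day 4 (Srxn1).

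In the authors' deposited table the same members stood out on a wider scale. It gave Srxn1 a fold change of 5.47 at day 4 with a false discovery rate of 0.0002. In the authors' deposited table Aox1 was at −4.48 at day 2 (0.0032) and −3.43 at day 4 (0.0335), the minus sign marking lower signal in HPNWT, and Ugdh was at −3.91 at day 2 (0.0077). Gclm was at −2.06 at day 1 (0.0004), −1.59 at day 2 (0.005) and −1.6 at day 4 (0.0348) in the authors' deposited table. The false discovery rate in the authors' deposited table was below 0.05 for 3 members at day 1, 5 at day 2 and 5 at day 4. The authors' deposited lists of changed genes, whose smallest absolute fold was 2.01, held 2 members at each day: Gclm and Ugdh, then Aox1 and Ugdh, then Srxn1 and Aox1. The largest of the authors' unadjusted p in these lists was 0.0487 at day 1 and 0.0497 at day 2 and day 4. A listed gene can thus have a false discovery rate above 0.05, as Ugdh had at day 1 (0.0659). The folds of that table and those of the value table above are on different scales, and the settings that made them differ are not known here.

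Beyond the 10 members, 125 genes of NRF2 regulation, glutathione, thioredoxin, detoxification and receptor target lists were examined, of which 118 were measured. At day 1, 6 were called higher and 8 lower, at day 2 10 higher and 18 lower, and at day 4 14 higher and 9 lower. Over all clusters the shares called higher were 2.97%, 2.16% and 1.54% in the order of the days. Those called lower were 1.62%, 3.51% and 0.67%, and the counts of each list below are to be read beside these shares. Their median differences were −0.053, −0.075 and −0.0089, beside 0.0066, 0.048 and 0.0068 over all clusters. Of the 12 lists, 6 held calls in both directions over the days, 1 held rises only and 5 held falls only. The lists were chosen with results of these data known.

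Of 9 regulators of NRF2, Mafg, a small MAF partner of NRF2, fell by 0.58 at day 1 (adjusted p = 0.00334) and by 0.56 at day 2 (0.005), and was not called at day 4 (−0.16, 0.591). Its HPNWT means of 5.97 and 5.95 at the first 2 of these days lay under the negative controls' 95th percentile, and its EGFP means of 6.55 and 6.51 above it. Maff, another small MAF, was higher at day 2 by 0.38 (0.0375), from a mean under the negative controls' 95th percentile. Nfe2l2, which encodes NRF2, was not called (−0.19, −0.21 and −0.10, adjusted p = 0.588, 0.426 and 0.849), and neither was Keap1 (0.13, 0.025 and 0.20, adjusted p = 0.701, 0.927 and 0.558). These last 2 were named for their place in the pathway after their values were seen.

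In the list of 12 glutathione synthesis and recycling genes, 2, 2 and 3 were higher and 1, 1 and 1 lower at day 1, day 2 and day 4. Gss, the glutathione synthetase that completes what glutamate-cysteine ligase begins, rose by 0.67, 0.62 and 0.75 log2 (SE 0.093, adjusted p = 5.62e-04, 0.00105 and 2.46e-04). The second enzyme of glutathione synthesis and the modifier of the first were called in opposite directions at each day. Ggct, a gamma-glutamylcyclotransferase of the same cycle, rose by 0.45, 0.51 and 0.59 (adjusted p = 0.00276, 0.00109 and 3.55e-04) from a mean of 5.07, under the negative controls' 95th percentile. Gpx1, the main cytosolic glutathione peroxidase, fell by 0.30, 0.50 and 0.28 (adjusted p = 0.0201, 6.85e-04 and 0.0493).

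The 18 measured glutathione S-transferases, which attach glutathione to reactive compounds, gave 0, 1 and 1 higher and 2, 3 and 2 lower at the 3 days. Gstt1 was higher by 0.67 at day 2 (adjusted p = 0.00128) and 0.58 at day 4 (0.00535). Mgst1, the microsomal enzyme, fell by 0.33, 0.51 and 0.52 (adjusted p = 0.026, 0.00154 and 0.00186), and Gsto1 fell by 0.48 at day 2 (0.00372). Among 11 thioredoxin and peroxiredoxin genes, Prdx4, the peroxiredoxin of the endoplasmic reticulum, rose by 0.51 at day 2 (7.36e-04) and 0.43 at day 4 (0.00351). Prdx6 fell by 0.58 and 0.50 at the same days (0.00399 and 0.0135), and mitochondrial Prdx3 rose by 0.45 at day 1 (0.0107). Sod1, the cytosolic superoxide dismutase, fell by 0.36 at day 2 (0.0473), the 1 call among 3 superoxide and peroxide genes.

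Quinone, carbonyl and epoxide genes, 16 in number, gave 1, 1 and 3 higher and 1, 2 and 1 lower. Ptgr1, a prostaglandin and alkenal reductase known as an NRF2 target, was higher by 0.30, 0.59 and 0.88 (adjusted p = 0.0436, 5.79e-04 and 1.34e-05), though its mean of 4.55 lay under the negative controls' 95th percentile. Akr1b7, an aldo-keto reductase, was higher at day 4 by 0.64 (0.00221), also from under that level. Aldh3a2, a fatty aldehyde dehydrogenase, fell by 1.18 at day 2 (0.00377). In the glucuronidation list, which holds transferases that use the product of Ugdh and other genes of UDP-sugar handling, 2, 4 and 2 of 9 measured were called lower and 0 higher. Its Ugp2, which makes the UDP-glucose that Ugdh uses, stood at 0.37, 0.56 and 0.68 and was not called, and is named here after its values were seen. Ugt2b1 fell by 0.73 at day 2 and 0.61 at day 4 (0.00307 and 0.0127), Ugt2b34 by 0.61 at day 1 and 0.63 at day 2 (0.00645 and 0.00543), and Ugt2b5 by 0.52, 0.68 and 0.55 (0.0307, 0.00687 and 0.0345). The Ugt2b genes are near copies of each other, so the array may mix their signals.

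G6pdx, which opens the pentose phosphate pathway and so supplies the NADPH that thioredoxin and glutathione reductases use, rose by 1.03, 1.33 and 0.69 (adjusted p = 8.54e-04, 1.24e-04 and 0.0215), with EGFP means of 6.15 at day 1 and day 2 just under the negative controls' 95th percentile. Pgd, a later enzyme of that pathway that also makes NADPH, rose by 0.66 at day 4 (0.0392), and no other of the 7 measured NADPH genes was called. Among 7 efflux transporters Abcc2 fell by 0.41 and 0.42 at day 1 and day 2 (0.0329 and 0.0261), and Abcc3 fell by 0.64 at day 2 (0.0345). Ftl1, the ferritin light chain, fell by 0.35 at day 2 (0.0131), the single call among 7 heme and iron genes.

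The list of the receptors CAR and PXR and their targets gave 1, 3 and 4 higher and 0, 0 and 1 lower of 13. Its median differences were −0.281, 0.0111 and 0.0523. Cyp3a11 (−0.18, −0.0491 and −0.185), Por (−0.49, −0.225 and −0.209) and Alas1 (−1.22, −1.21 and 0.129) were not called at any day. Cyp2b10 was called higher at day 4 only (adjusted p = 0.0482), from an EGFP mean under the negative controls' 95th percentile. These genes are named after their values were seen. Cyp2b9 was called higher at all 3 days (adjusted p = 0.00221, 3.18e-05 and 2.29e-06), with HPNWT means of 6.44, 7.84 and 8.97. Its EGFP means of 4.29, 4.24 and 4.17 lay under the negative controls' 95th percentile, so the size of the rise is not given. Cyp2b13 was called higher at day 2 and day 4 (0.00125 and 2.90e-05), with all group means under that level. Cyp3a13 fell by 0.62 at day 4 (0.0249). These Cyp2b genes are near copies of each other as well. In the list of 6 genes that holds the dioxin receptor gene Ahr and its targets, Cyp1a2 fell by 0.63 at day 2 and 0.56 at day 4 (0.00734 and 0.0211).

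**Figure D3:**
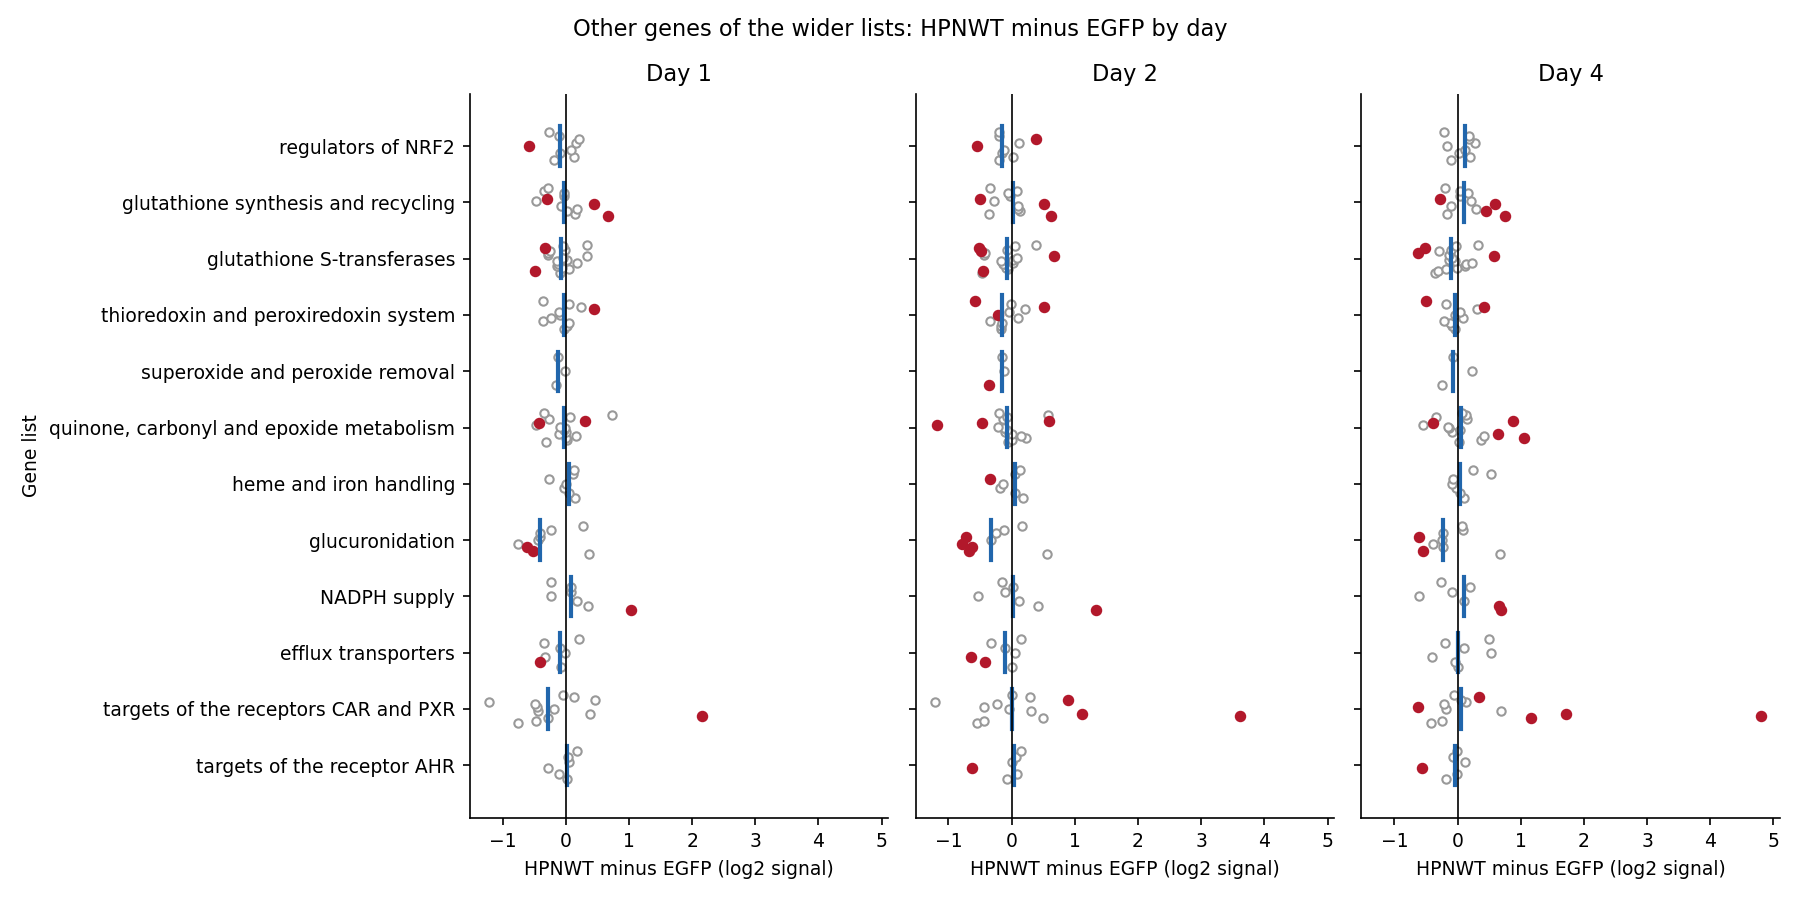
HPNWT minus EGFP difference in log2 signal (x axis) for the measured genes of 12 lists (y axis) at each day, with filled red points where the adjusted p was below 0.05, open points otherwise and blue lines at the list medians. Calls lie on both sides of 0 in 6 lists over the days, and glucuronidation has its called genes on the lower side only.

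Finally, each member was set against 5589 genes above the negative controls by Pearson correlation over the 18 arrays, as a description of likeness. The points share the group differences and the arrays, so the correlation within groups is given after each. Gclm was most like Slc17a2 (0.963, within groups 0.764) and Acsm5 (0.938, 0.772). Aox1 was most like Aldh3a2 (0.954, 0.816) and Csad (0.945, 0.678), and Sod2 most like Hpd (0.948, 0.483) and Dpys (0.945, 0.474). Srxn1 had Rhoc (0.928, 0.799) and Bin1 (0.924, 0.836) nearest to it. Ephx1 was nearest to Acaa1b (0.918, 0.573) and Sec14l2 (0.905, 0.665), and Gclc to Mme (0.914, 0.874) and Rnf125 (0.776, 0.839). Nqo1 was nearest to Htatip2 (0.888, 0.931) and Mapk3 (0.882, 0.801), Txnrd1 to H2-K1 (0.852, 0.571) and Clec4g (0.821, 0.787), and Hmox1 to the histone genes Hist1h2bn (0.828, 0.788) and Hist1h2bl (0.811, 0.778). Ugdh was nearest to Entpd5 (0.865, 0.363) and Ftl1 (0.835, 0.0017), whose likeness to it was almost wholly one of group means. No member was the nearest gene of another, since members were left out of the search.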

How the data were processed

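Liver RNA of 18 mice was labelled and hybridised to 1 array each. The authors deposited log2 signals made by robust multi-array averaging in the Transcriptome Analysis Console, per the submitters' processing notes. Its version, the genome build of the probe annotation and any batch are not given in the sources used here. That table has 72688 rows, of which 65956 are transcript clusters and 40161 carry a gene symbol in the authors' comparison tables, with 3590 carrying several. Those tables also hold, per the file headers, log2 group averages, a signed linear fold change used as a score, and p-values and false discovery rates, all of which the authors' software computed.

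Group means of all 40161 clusters were fitted by lmFit and eBayes (limma 3.58.1 under R 4.3.3), with 6 group means over 18 arrays and no further scaling, filter or covariate. Tests were 2-sided, and p-values were adjusted by Benjamini-Hochberg over all clusters. SE values come from the fit and SD values from 3 arrays. With 3 against 3 arrays an exact permutation of a single day cannot go below p = 0.1, so single days were tested in limma only. The fit was tested on simulated data.

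The members are all named. From each wider list the up to 3 called genes with the smallest adjusted p at any day are named, and for each member the 2 genes with the highest correlation, leaving out predicted genes, pseudogenes and small RNAs. Summed marker signals are log2 of the sum of linear signals. The members and lists were chosen with earlier results of these data known. Alternatives were the arrays of 1 day alone, a replicate block, leaving out each array, median centring, repeated quantile normalization, the negative-control median as a covariate, a filter at the negative controls' 95th percentile, all transcript clusters, and array weights. Promoter letters came from RefSeq tables read with pandas 2.3.3 in Python 3.11.15.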

Additional observations from a re-analysis of the deposited data

How the results depend on the processing

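Of the single-gene values, 1128 kept their direction and their side of the threshold under the alternatives, 73 lost the call, 23 gained it and 7 turned their sign. The call of Srxn1 at day 4 and the calls of Gclm at day 1 were kept in all 26 alternatives. The number of members called at day 1, 3 as reported, became 1 with the 6 arrays of the day alone, 1 after median centring and 7 with array weights, and ranged from 1 to 4 over the fits that left out 1 array. At day 2, 5 as reported, it became 0 with the negative-control median as covariate and ranged from 4 to 5. At day 4, 5 as reported, it became 1 with the arrays of the day alone, 1 after median centring, 3 with the covariate and 3 over all transcript clusters, and ranged from 2 to 5. Array weights raised the members differing among HPNWT groups to 4 (from 1 to 3 with an array left out) and called 1 member each for the change of effect from day 1 to day 4 and from day 2 to day 4, where leaving out an array gave 0 to 1. Repeated quantile normalization also called 1 for day 4 against day 1. These weights ran from 0.142 for HPNWT day 4 replicate 3 to 6.51 for EGFP day 1 replicate 2. A paired fit with a replicate block called 3, 5 and 4 members at the 3 days and lost Ephx1 at day 4 (adjusted p = 0.0653), with no other reported call changed for members at single days. For same-numbered arrays the deviations from the group means correlated between −0.25 and 0.111. Of 9 HPNWT arrays, 2 correlated best with the EGFP array of their own number. With 3 arrays per group these values cannot decide whether same-numbered arrays shared a batch, which the labels do not give. Values that turned their sign belonged to differences that were not called. Hmox1 at day 1 came to 0.10 with the covariate, and Ugdh at day 4 to 0.022 with array weights. With an array left out, Nqo1 at day 1 ran from −0.052 to 0.11, Gclc at day 4 from −0.013 to 0.23, Hmox1 at day 4 from −0.0043 to 0.46 and Ugdh at day 4 from −0.30 to 0.0081. The cause was not tested. The second-brightest cluster of a member was not run, since each has 1 cluster. With 3 arrays per group, small differences were at the limit of what the fit could call, and signals of Nqo1 and Sod2 lie too near the background to size a fold.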
